A study of Mus musculus with 5 samples.

Results

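Antigen presentation by class I and class II molecules of the major histocompatibility complex (MHC) was described in murine lung cancer-associated fibroblasts (CAFs) through 10 named genes, which were looked up by symbol in a table of 21835 genes. These were the class I heavy chains H2-K1 and H2-D1 and their light chain B2m, the peptide transporter and loading genes Tap1, Tap2 and Tapbp, the immunoproteasome subunits Psmb8 and Psmb9, and the class II genes Cd74 and H2-Ab1. All 10 were found. The RNA sequencing compared CAFs transduced with a vector control (CAF-vec, labelled WT control, 2 samples) with CAFs carrying the lentiviral cluster of miR-200b, miR-429 and miR-200a (CAF-200, labelled miR-200 overexpression, 3 samples). According to the labels, the cluster was carried in pLVX-Neo, infection was followed by selection with G418 for more than 2 weeks, and all cells were grown in alpha-MEM with 10% serum. Age and strain of the source animals are not given in the labels, and no interferon was part of the described culture. The labels and the study's account of the RNA sequencing both place the vectors in CAFs, while its description of the construct names pLVX-Hyg and lung fibroblasts, and the labels and methods name different RNA extraction kits. Nothing states that samples of a group came from separate cultures or animals, so p values measure only the spread between these samples, which may be technical.

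Nucleated cells display peptides from their own proteins on class I molecules. The proteasome cuts the proteins, TAP1 and TAP2 carry the peptides into the endoplasmic reticulum, tapasin (Tapbp) holds the empty class I molecule at the transporter, and the heavy chain leaves for the surface with beta-2-microglobulin (B2m). Interferon induces most of these genes, among them Psmb8 and Psmb9, whose products replace the constitutive catalytic subunits PSMB5 and PSMB6 in the immunoproteasome. Class II molecules display peptides from endocytosed proteins to CD4+ T cells, are guided by the invariant chain (Cd74), and belong mainly to professional antigen-presenting cells, although fibroblasts can be induced to make them.

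The overexpressed mature miRNAs are shown because their seeds decide which transcripts they can pair with. The sequences are from RefSeq on GRCm38.p6, 5' to 3', with the seed (bases 2 to 8) in capitals.
mmu-miR-200b-3p (chr4:156055685-156055706, minus strand): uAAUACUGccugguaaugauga
mmu-miR-429-3p (chr4:156053916-156053937, minus strand): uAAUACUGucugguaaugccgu
mmu-miR-200a-3p (chr4:156054911-156054932, minus strand): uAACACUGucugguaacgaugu
The seeds of miR-200b and miR-429 are the same, and that of miR-200a differs from them. The 7-base matches to these seeds are CAGTATT for miR-200b and miR-429 and CAGTGTT for miR-200a. Neither occurred in the longest annotated 3'-UTR of any of the 10 genes, whose 3'-UTRs are 188 to 1141 bases long in GENCODE M21. Among the 12060 genes tested that have an annotated 3'-UTR, with a median length of 1174 bases, 15.7% held the first match, 20.9% the second and 30.3% at least 1 of them. This is a description of letters in a window and says nothing of sites elsewhere in a transcript.

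Of the 10 genes, 8 lie on chromosome 17 within 1352 kb of the MHC (33915899 to 35267499 on GRCm38). Windows of 250 bases before to 50 bases after the RefSeq start site (GRCm38.p6) were available for 7 of the 10. They are shown for 5 of these, the class I chains, Tap1, whose window largely overlaps that of Psmb9, and Psmb8, because most of them hold the motifs searched for. Capitals mark matches, on either strand, to an interferon-stimulated response element (GAAANNGAAA), an interferon regulatory factor motif (GAANNGAAA), a gamma-activated site (TTCNNNGAA) or the kappa-B motif of NF-kappa-B.
H2-K1 promoter window (chr17:34000298-34000597, minus strand): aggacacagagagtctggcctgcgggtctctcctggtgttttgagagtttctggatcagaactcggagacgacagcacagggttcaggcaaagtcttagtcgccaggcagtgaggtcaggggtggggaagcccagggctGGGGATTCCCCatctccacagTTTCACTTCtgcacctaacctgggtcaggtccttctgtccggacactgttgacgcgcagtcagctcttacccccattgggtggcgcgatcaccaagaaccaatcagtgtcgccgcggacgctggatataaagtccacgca
H2-D1 promoter window (chr17:35262844-35263143, plus strand): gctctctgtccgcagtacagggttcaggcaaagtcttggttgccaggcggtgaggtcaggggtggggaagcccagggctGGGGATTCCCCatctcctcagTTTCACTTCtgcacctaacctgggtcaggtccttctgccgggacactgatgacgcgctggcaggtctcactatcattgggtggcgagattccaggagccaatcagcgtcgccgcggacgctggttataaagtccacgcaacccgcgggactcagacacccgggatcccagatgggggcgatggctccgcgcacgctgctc
B2m promoter window (chr2:122147437-122147736, plus strand): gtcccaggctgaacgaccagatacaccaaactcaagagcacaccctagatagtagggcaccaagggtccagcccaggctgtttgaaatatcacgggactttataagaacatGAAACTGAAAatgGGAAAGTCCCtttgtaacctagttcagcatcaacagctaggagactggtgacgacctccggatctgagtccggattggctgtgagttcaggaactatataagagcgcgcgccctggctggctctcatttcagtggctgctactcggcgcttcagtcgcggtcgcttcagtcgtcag
Tap1 promoter window (chr17:34187306-34187605, plus strand): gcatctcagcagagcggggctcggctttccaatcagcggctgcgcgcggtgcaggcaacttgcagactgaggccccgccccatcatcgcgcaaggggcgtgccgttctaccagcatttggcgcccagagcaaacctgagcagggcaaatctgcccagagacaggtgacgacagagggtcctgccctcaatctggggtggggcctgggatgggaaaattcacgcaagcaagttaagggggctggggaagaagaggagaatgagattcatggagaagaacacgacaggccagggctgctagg
Psmb8 promoter window (chr17:34197945-34198244, plus strand): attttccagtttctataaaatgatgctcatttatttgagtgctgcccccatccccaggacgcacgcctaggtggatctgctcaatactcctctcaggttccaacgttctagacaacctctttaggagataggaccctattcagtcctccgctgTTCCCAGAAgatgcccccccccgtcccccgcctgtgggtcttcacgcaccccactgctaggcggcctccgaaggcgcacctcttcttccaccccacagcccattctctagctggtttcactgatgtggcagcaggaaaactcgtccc
H2-K1 and H2-D1 each held a kappa-B and an interferon regulatory factor match, and 206 of 227 aligned bases of their windows were identical (90.7%). B2m held an interferon-stimulated response element next to a kappa-B match. Psmb8 held a gamma-activated site, and none of Tap1, Psmb9 and Tapbp held any of these motifs. Tap1 and Psmb9 are read from opposite strands, and their windows share 275 bases. Another pattern, CCAAT, occurred in the windows of H2-K1, H2-D1, B2m, Tap1, Tapbp and Psmb9. Over 32544 promoter windows of the same length, 3.45% held the response element, 7.57% the regulatory factor motif, 8.33% the gamma-activated site, 8.49% kappa-B and 37.4% CCAAT. The motifs were chosen after these sequences were seen, and a match is not evidence of a bound factor.

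Values are in CPM, the authors' normalized counts on a common library total, and each sample's column sums to nearly the same total (999956 to 1000111), and the read depth of each sample is unknown. Changes are differences of mean log2(CPM + 0.5), which understates the change of genes near 0.5 CPM, and limma tested the 12175 genes that reached 0.5 CPM in 2 or more samples. To be called, a gene needed an adjusted p under 0.01 together with a log2 change beyond 1. The median log2 change of all genes tested was -0.09, and it was 0.00 with samples centred on their medians. The CAF-vec pair was the more variable group, with 499 genes over 1 log2 unit apart against 36 to 46 for pairs of CAF-200 samples. The 2 groups also differed in how low values were listed, since the same 6127 genes were at 0 in all 3 CAF-200 samples, against 7898 and 7413 in the CAF-vec samples. Zeb1, a known miR-200 target, was 43.5 and 50.8 CPM in CAF-vec and 37.8, 37.5 and 34.1 CPM in CAF-200, without overlap (log2 change -0.36, limma adjusted p = 0.0504). Zeb2 overlapped between the groups (log2 change -0.23, limma adjusted p = 0.374), and its log2 change was 0.08 without CAF-vec 1 and -0.54 without CAF-vec 2. Mature miRNA levels were not analysed here. Among markers, 9 of 10 fibroblast genes were expressed highly enough to test, with a positive log2 change for 4 and a negative one for 5 (median -0.20). Dcn, Lum and Thy1 were called higher and 0 were called lower, with Col1a1 at -0.91 (limma adjusted p = 0.0982) and Col1a2 at -0.75 (limma adjusted p = 0.112), while Fap stayed below 0.4 CPM.

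The class I chains, transporter and loading genes were expressed in both groups, the immunoproteasome subunits were low, and Cd74 and H2-Ab1 were below the level required for testing. Of the 10 genes, 8 passed the filter on low values, and 0 of these 8 were called higher and 0 lower, where 2.37% of all genes tested were called higher and 2.35% lower. At an adjusted p under 0.01 with no fold threshold the count was also 0 in each direction (4.45% and 5.57% of all genes). At an adjusted p under 0.05 with no fold threshold, chosen after the data were seen, Psmb8 and Psmb9 were higher and Tapbp was lower in CAF-200. Of all genes, 11.9% were higher and 18.6% lower at that threshold. The same 3 had an unadjusted p under 0.05, as had 5469 of the 12175 genes tested. Without any 1 CAF-200 sample the adjusted p from limma was 0.0777 to 0.101 for Tapbp, 0.0576 to 0.0668 for Psmb9 and 0.0419 to 0.094 for Psmb8. In those fits at most 1 gene of all tested was called. Psmb8 passed the filter only through its CAF-200 values, so these counts include a gene that had to differ to be tested. The groups did not overlap for 5 of the 8, where 61.6% of all genes did not overlap. The median log2 change of the 8 was 0.03. With bulk RNA, fewer expressing cells and less RNA per cell cannot be told apart.

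**Figure D1:**
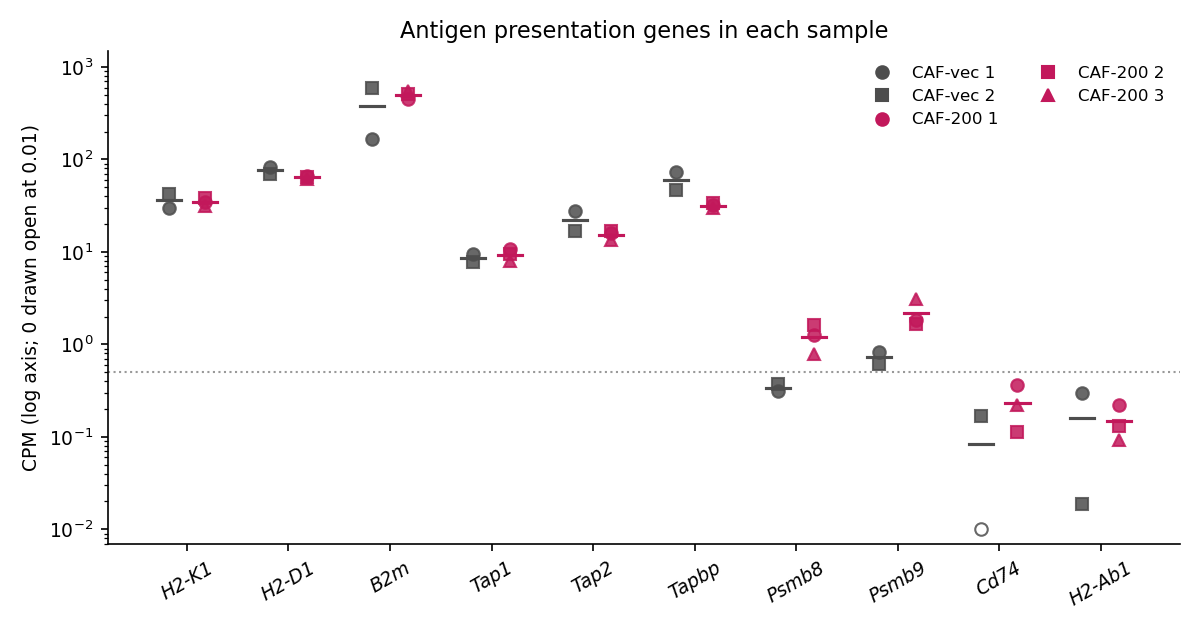
CPM on a log axis for the 10 genes, with 1 point per sample (grey, CAF-vec; red, CAF-200), group means as short bars and the 0.5 CPM filter level as a dotted line. B2m stands highest and is split between the CAF-vec samples (165 and 600 CPM), Psmb8 and Psmb9 are higher in all 3 CAF-200 samples, and Cd74 and H2-Ab1 lie below the line in every sample.

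The class I heavy chains present peptide to CD8+ T cells and inhibit natural killer cells. H2-K1 (ENSMUSG00000061232, chromosome 17, 33996017 to 34000347, minus strand) was 30.1 and 42.7 CPM in CAF-vec and 34.8, 38.0 and 31.6 CPM in CAF-200. All 3 CAF-200 values lay between the CAF-vec values, and the log2 change was -0.05 (standard error 0.170, 95% confidence interval -0.47 to 0.37, limma adjusted p = 0.841), with its sign turned by quantile normalization, by centring on medians, without CAF-200 3 (0.02) and without CAF-vec 2 (0.20). H2-D1 (ENSMUSG00000073411, chromosome 17, 35262730 to 35267499, plus strand) was 83.4 and 69.9 CPM in CAF-vec and 66.2, 65.3 and 60.8 CPM in CAF-200. The CAF-200 samples were all lower by a small margin (log2 change -0.25, standard error 0.108, interval -0.52 to 0.02, limma adjusted p = 0.128). Without CAF-vec 2 the log2 change of H2-D1 was -0.38 (limma adjusted p = 0.00339), short of the fold threshold, and without CAF-vec 1 it was -0.12 (limma adjusted p = 0.208). Of all 100-base windows in transcripts of these genes, 0.957% for H2-K1 and 3.59% for H2-D1 also occur in transcripts of other genes, mostly of class I relatives such as H2-Q10 and H2-Q1, so reads may have been divided among them and both values are uncertain to that extent. The per-sample log2 ratio of H2-K1 to H2-D1 was -1.45 and -0.70 in CAF-vec and -0.92, -0.77 and -0.94 in CAF-200 (difference 0.20, exact two-sided permutation p = 0.8). The difference was -0.17 without CAF-vec 1 and 0.58 without CAF-vec 2, and with 2 against 3 samples no p below 0.2 can be reached.

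B2m (ENSMUSG00000060802, chromosome 2, 122147686 to 122153083, plus strand), the light chain shared by classical and most class I-like molecules, had the largest difference between the CAF-vec samples among the 8 genes tested. It was 164.8 and 599.9 CPM in CAF-vec and 445.8, 509.9 and 545.5 CPM in CAF-200. The CAF-200 samples lay close together between the CAF-vec samples, which differed 3.64-fold. A difference between the CAF-vec samples as large as this was found for 51 of the 12175 genes tested (0.419%), and 34 of those were higher in CAF-vec 2. The log2 change was 0.66 (standard error 0.515, interval -0.61 to 1.94, limma adjusted p = 0.355). It was -0.27 (limma adjusted p = 0.0818) without CAF-vec 1 and 1.59 (limma adjusted p = 3.41e-05) without CAF-vec 2, so that 1 control sample decided its direction. Per kb of merged exon, B2m was 191.6 and 697.6 CPM in CAF-vec and 518.4, 592.9 and 634.3 CPM in CAF-200, while the sum of H2-K1 and H2-D1 per kb was 57.9 and 59.0 in CAF-vec and 52.5, 54.0 and 48.0 in CAF-200. B2m thus exceeded the summed heavy chains per kb 3.31-fold in CAF-vec 1 and 9.87 to 13.2-fold in the other samples. The cause of the spread between the CAF-vec samples was not tested.

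The peptide transporter is a heterodimer of TAP1 and TAP2. Tap1 (ENSMUSG00000037321, chromosome 17, 34187553 to 34197225, plus strand) was 9.59 and 7.78 CPM in CAF-vec and 10.7, 9.42 and 7.99 CPM in CAF-200. The groups overlapped, with a log2 change of 0.10 (standard error 0.159, interval -0.29 to 0.49, limma adjusted p = 0.651) that was -0.04 without CAF-vec 2. Tap2 (ENSMUSG00000024339, chromosome 17, 34203527 to 34216321, plus strand) was 28.0 and 16.8 CPM in CAF-vec and 15.9, 16.6 and 13.4 CPM in CAF-200. CAF-vec 1 stood apart and CAF-vec 2 lay just above the CAF-200 samples. The log2 change of Tap2 was -0.50 (standard error 0.228, interval -1.06 to 0.07, limma adjusted p = 0.146), -0.14 without CAF-vec 1 and -0.86 without CAF-vec 2 (limma adjusted p = 0.000854). Tap2 shares 518 exonic bases with a long noncoding gene on the opposite strand. The log2 ratio of Tap1 to Tap2 was -1.50 and -1.06 in CAF-vec and -0.56, -0.79 and -0.71 in CAF-200, above both controls in 3 of 3 CAF-200 samples (difference 0.60, exact permutation p = 0.2, the smallest possible here). The difference was 0.38 without CAF-vec 1 and 0.82 without CAF-vec 2. Per kb of merged exon, the level of Tap1 was 39.8% and 54.0% of that of Tap2 in the CAF-vec samples and 66.0% to 78.1% in the CAF-200 samples.

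Tapbp (ENSMUSG00000024308, chromosome 17, 33915899 to 33929292, plus strand) encodes tapasin, which edits the peptides that class I molecules bind. It was 73.0 and 46.5 CPM in CAF-vec and 32.0, 33.5 and 29.6 CPM in CAF-200. Both CAF-vec samples exceeded all CAF-200 samples, which varied little among themselves. The log2 change was -0.87 (standard error 0.196, interval -1.36 to -0.39, limma adjusted p = 0.0239), the 707th most negative of the 12175 genes tested. It was -0.55 without CAF-vec 1 and -1.19 without CAF-vec 2. Without any 1 CAF-200 sample, when at most 1 gene of all tested was called, the adjusted p from limma was 0.0777 to 0.101. Tapbp overlaps Zbtb22 on the same strand over 3422 bases of gene body but over 0 exonic bases, while an antisense gene shares 682 exonic bases with Tapbp. Zbtb22 was 32.8 and 28.9 CPM in CAF-vec and 26.5, 25.5 and 28.4 CPM in CAF-200.

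**Figure D2:**
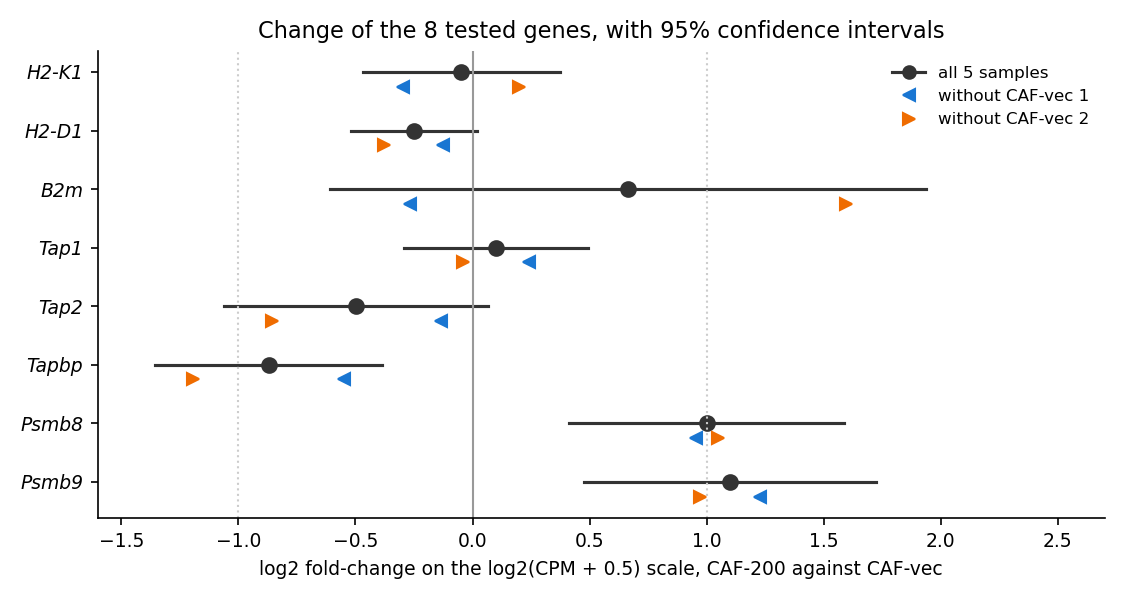
Log2 change on the log2(CPM + 0.5) scale (CAF-200 against CAF-vec) of the 8 genes tested, as a circle with its 95% confidence interval, with triangles for the value without CAF-vec 1 (blue) and without CAF-vec 2 (orange). The intervals of Tapbp and Psmb9 do not reach 0, nor does that of Psmb8, which entered the test only through its CAF-200 values, and the value of B2m moves from -0.27 to 1.59 with the control sample used.

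The immunoproteasome subunits PSMB8 and PSMB9 favour the cutting of peptides that fit class I molecules. Psmb8 (ENSMUSG00000024338, chromosome 17, 34197721 to 34201454, plus strand) was 0.314 and 0.369 CPM in CAF-vec and 1.25, 1.61 and 0.789 CPM in CAF-200. Every CAF-200 value was more than any CAF-vec value, all at a low level, but the gene entered the test only through its CAF-200 values, so that its lack of overlap and its p are in part fixed by the filter. The log2 change was 1.00 (standard error 0.237, interval 0.41 to 1.59, limma adjusted p = 0.0277). Psmb9 (ENSMUSG00000096727, chromosome 17, 34181987 to 34187764, minus strand) was 0.837 and 0.618 CPM in CAF-vec and 1.82, 1.67 and 3.06 CPM in CAF-200. The groups again did not overlap, with a log2 change of 1.10 (standard error 0.252, interval 0.48 to 1.72, limma adjusted p = 0.025). On the CPM scale the CAF-200 mean was 3.56 times the CAF-vec mean for Psmb8 and 3.00 times for Psmb9. The size depended on the pseudocount, with log2 changes between 0.71 and 1.53 for Psmb8 and between 0.86 and 1.43 for Psmb9 at pseudocounts of 1 and 0.1. Psmb9 shares 212 exonic bases with the start of Tap1 on the opposite strand, and Psmb8 shares 186 with an antisense gene. The library kit marks strand, but the strand setting of the counting is not given in the sources used here. Macrophage and dendritic cell genes, which belong to cells rich in both subunits, had sums of 13.5 and 15.04 CPM in the controls and of 15.7 to 16.7 CPM in CAF-200. Of those 12 genes 4 were tested, and Lyz2 was called higher (1.11 and 1.99 CPM against 7.48, 7.16 and 6.48 CPM), while Csf1r, Cd68 and Cd14 had negative log2 changes (-0.46, -0.14 and -0.44) that did not pass the test (median of the 4, -0.29). In the same list Adgre1, Aif1, Tyrobp, Fcer1g and Laptm5 were at 0 in all samples and Ptprc did not exceed 0.0404 CPM. The part of such cells in the values of Psmb8 and Psmb9 was not tested.

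The subunits that PSMB8, PSMB9 and PSMB10 replace were far more abundant per kb in every sample. Psmb5 was 227.9 and 147.8 CPM in CAF-vec and 127.7, 112.5 and 114.4 CPM in CAF-200 (log2 change -0.64, limma adjusted p = 0.0548), so the groups did not overlap, and the change was -0.32 without CAF-vec 1 and -0.95 without CAF-vec 2. Per kb of merged exon, Psmb8 was at 0.0760% and 0.138% of the level of Psmb5 in CAF-vec and at 0.381% to 0.788% in CAF-200, and the log2 ratio on the CPM + 0.5 scale differed by 1.63 (exact permutation p = 0.2), by 1.28 to 1.99 with 1 sample left out and by 2.16 at a pseudocount of 0.1. Psmb6 was 293.6 and 236.8 CPM in CAF-vec and 250.9, 240.5 and 234.2 CPM in CAF-200. Psmb9 per kb was at 0.168% and 0.154% of Psmb6 in CAF-vec and at 0.410% to 0.771% in CAF-200, with a log2 ratio that differed by 1.22 (exact permutation p = 0.2). In 3 of 3 CAF-200 samples both ratios were above those of the controls, which for Psmb8 is in part fixed by the filter. Psmb10, the third inducible subunit, was 38.7 and 23.4 CPM in CAF-vec and 31.4, 31.6 and 24.7 CPM in CAF-200. It overlapped between the groups (log2 change -0.05, limma adjusted p = 0.879), as did its log2 ratio to Psmb7 (difference -0.22, exact permutation p = 0.6), and the sign of both turned without CAF-vec 1 (0.31 and 0.10), that of Psmb10 also without CAF-200 3 (0.07) and with centring (0.05) or quantile normalization (0.06). Per kb, Psmb10 was at 10.7% to 19.2% of the level of Psmb7 over the 5 samples. The 5 ratios were the comparisons of this kind, and since none could pass any threshold, no adjustment was made.

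**Figure D3:**
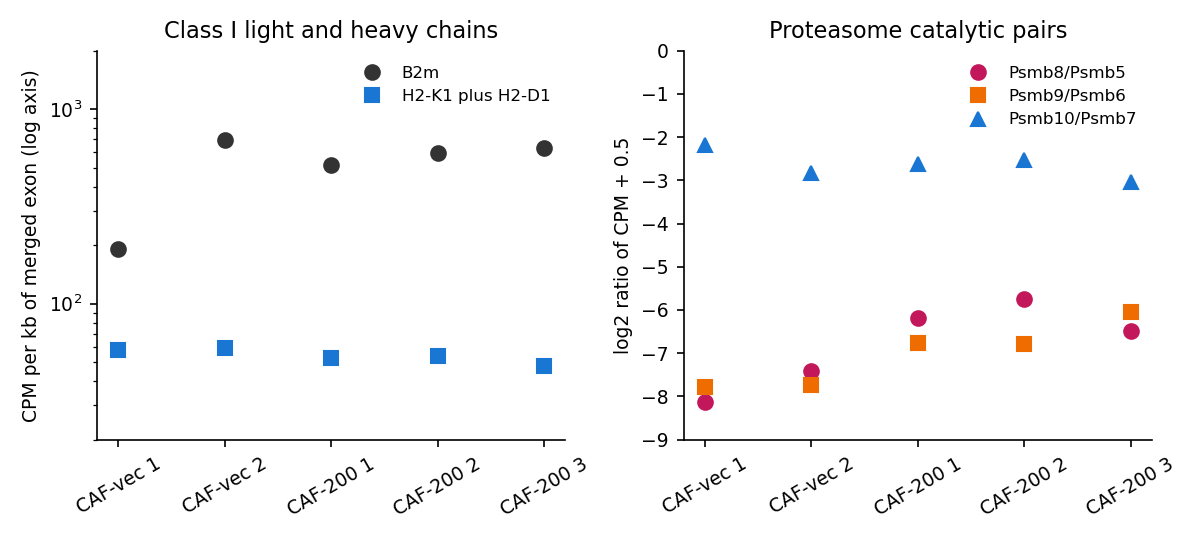
Left, CPM per kb of merged exon (log axis) of B2m and of H2-K1 plus H2-D1 in each sample. Right, log2 ratio of CPM + 0.5 of each inducible proteasome subunit to its constitutive counterpart in each sample, where Psmb8/Psmb5 and Psmb9/Psmb6 lie higher in all 3 CAF-200 samples and Psmb10/Psmb7 overlaps between the groups.

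Psmb9, Tap1, Psmb8 and Tap2 lie next to each other within 34.3 kb of chromosome 17 (34181987 to 34216321). Of these 4 genes 0 were called, where 2.37% of all genes tested were called higher and 2.35% lower. The log2 changes were 1.10 for Psmb9 and 1.00 for Psmb8, which passed the filter only through CAF-200, and 0.10 for Tap1 and -0.50 for Tap2, and the differences between these genes were not tested. Beyond Tap2, H2-Ob and H2-Ab1 did not pass the filter. On the side of Psmb9, H2-DMb1 (34153072 to 34160230) was tested and not called (log2 change -0.32, limma adjusted p = 0.0983).

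**Figure D4:**
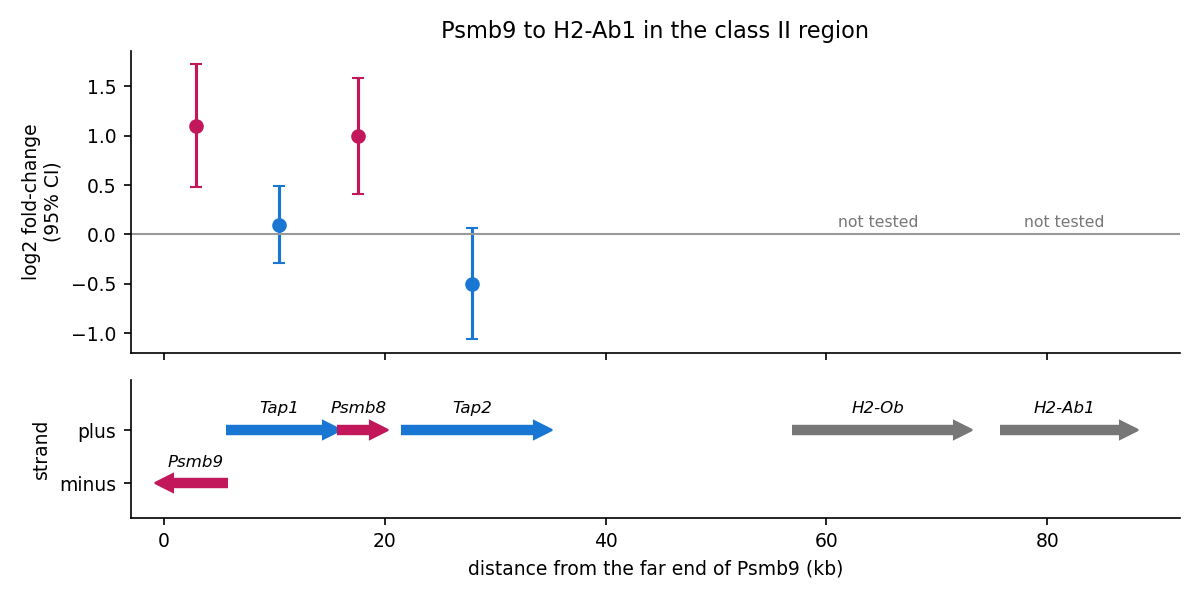
Log2 change with its 95% confidence interval (top) and gene position by strand (bottom) against distance in kb from the far end of Psmb9, with arrows in the direction of transcription. Psmb9 (1.10) and Psmb8 (1.00) stand above 0, Tap1 (0.10) and Tap2 (-0.50) have intervals that include 0, and H2-Ob and H2-Ab1 were not tested.

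Of the class II genes, Cd74 and H2-Ab1 were near the lower end of the table in both groups. Cd74 (ENSMUSG00000024610, chromosome 18, 60803848 to 60812652, plus strand) was listed at 0 and 0.169 CPM in CAF-vec and at 0.360, 0.114 and 0.223 CPM in CAF-200. H2-Ab1 (ENSMUSG00000073421, chromosome 17, 34257689 to 34269419, plus strand), the beta chain of I-A, was 0.298 and 0.0189 CPM in CAF-vec and 0.221, 0.133 and 0.0924 CPM in CAF-200. Both overlapped between the groups and neither passed the filter, so they were left out of the test. H2-Aa, which encodes the alpha chain that pairs with H2-Ab1, was at 0 in all 5 samples, as were H2-Eb1, H2-Eb2, H2-Oa, H2-Ob and Ciita, the class II transactivator. The genes of the peptide exchange factor DM differed in level. H2-DMb2 was at 0 in 4 of the 5 samples and at 0.0693 CPM in CAF-vec 2, whereas H2-DMb1 was at 11.7 and 14.8 CPM in CAF-vec and 10.5, 10.2 and 10.6 CPM in CAF-200, and both were chosen after their values were seen. B cell, T cell, endothelial and epithelial markers had 0 genes high enough to test, with sums of at most 0.857 CPM. Msln, a gene of mesothelium, was called lower (5.74 and 6.68 CPM against 1.54, 1.15 and 0.986 CPM).

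By level per kb, which allows genes to be compared, B2m came first and H2-D1 next in all 5 samples. H2-K1 followed and then Tapbp in 4 samples, and in CAF-vec 1 they changed places. In CAF-vec H2-K1 was 18.2 and 25.8 CPM per kb and Tapbp 25.2 and 16.05, so these neighbours overlapped, while in CAF-200 H2-K1 was 19.1 to 22.95 and Tapbp 10.2 to 11.6, with no overlap. Tap2 (3.89 to 8.15 CPM per kb) came after these and Tap1 (2.64 to 3.61) after Tap2 in every sample, followed by Psmb9 (0.457 to 2.26). Psmb8 (0.193 to 0.986 CPM per kb) was next except in CAF-vec 1, where H2-Ab1 (0.246) exceeded it (0.193), and the last places went to Cd74 and H2-Ab1 in the other samples.

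Lists of related genes (6) were described for the rest of the pathway, 96 genes of which 92 were in the table and 66 were tested. Of these 66, 2 were called higher, 1 lower and 63 neither, beside the 2.37% and 2.35% of all genes, and at an adjusted p under 0.01 alone 5 were higher and 4 lower, where 4.45% and 5.57% of all genes were. The median log2 change of the 66 was -0.11 against -0.09 over all genes tested. H2-T10, H2-L, Cd1d2 and Ifi30 were not analysed here.

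Among 13 genes of class I peptide loading and trimming, all were tested and 0 were called (median log2 change -0.20). The 2 lowest were subunits of the interferon-inducible PA28 proteasome activator. Psme1 was 72.7 and 50.3 CPM in CAF-vec and 32.2, 32.7 and 32.4 CPM in CAF-200 (log2 change -0.89, limma adjusted p = 0.0133), and Psme2 was 103.5 and 83.6 CPM against 61.5, 59.6 and 63.7 CPM (-0.59, limma adjusted p = 0.0161). Both lay below the controls in 3 of 3 CAF-200 samples, where 61.6% of all genes did not overlap between the groups. Psme3, which encodes the nuclear activator PA28 gamma, was 91.6 and 86.9 CPM in CAF-vec and 119.2, 116.7 and 131.1 CPM in CAF-200 (0.45, limma adjusted p = 0.0187), and Psmf1, a proteasome inhibitor, had a log2 change of 0.18 (limma adjusted p = 0.222). The log2 changes of Psme1, Psme2 and Psme3 were -0.63, -0.44 and 0.49 without CAF-vec 1, and -1.15, -0.745 and 0.41 without CAF-vec 2. Without any 1 CAF-200 sample the adjusted p from limma ran from 0.0586 to 0.0673 for Psme1, 0.0737 to 0.0791 for Psme2 and 0.0752 to 0.0965 for Psme3. In those last fits at most 1 gene of all tested was called. The 3 constitutive catalytic subunits, Psmb5, Psmb6 and Psmb7, were all tested and 0 were called (median -0.12).

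Of 26 nonclassical and class I-like genes, 23 were in the table and 14 were tested, with 1 called higher, 1 lower and 12 neither (median 0.05). Raet1d (ENSMUSG00000078452), a ligand of the natural killer cell receptor NKG2D, was 10.7 and 18.4 CPM in CAF-vec and 39.3, 41.0 and 45.3 CPM in CAF-200, and rose by 1.54 on the log2 scale (standard error 0.225, limma adjusted p = 0.00789). The related NKG2D ligands Raet1e and Ulbp1, chosen after their values were seen, had log2 changes of 0.68 (limma adjusted p = 0.138) and 0.83 (limma adjusted p = 0.0187), and the annotated body of Raet1d lies within that of Raet1e on the same strand (22158569 to 22374139 on chromosome 10). Fcgrt (ENSMUSG00000003420), which encodes the heavy chain of the neonatal Fc receptor and pairs with B2m, was 134.8 and 88.1 CPM in CAF-vec and 47.8, 45.4 and 38.1 CPM in CAF-200, and fell by 1.31 on the log2 scale (standard error 0.203, limma adjusted p = 0.00885). Both calls were lost without any 1 of the 3 CAF-200 samples, when at most 1 gene of all tested was called. The limma adjusted p values were then 0.038, 0.0442 and 0.0495 for Raet1d and 0.0392, 0.0464 and 0.0511 for Fcgrt. Both calls were also lost with no filter (limma adjusted p = 0.0149 for Raet1d and 0.0164 for Fcgrt) and with the replicate number as a block (limma adjusted p = 0.015 and 0.0186), and that of Fcgrt with no variance trend (limma adjusted p = 0.0105). The block fit has the same log2 changes as the fit without CAF-200 3 (1.48 for Raet1d and -1.22 for Fcgrt), so it is not a separate alternative. H2-M9 was at 0 in both CAF-vec samples and 0.382, 0.583 and 0.671 CPM in CAF-200, and it passed the filter only through CAF-200. No fold is given for it, since the fitted value depends on the pseudocount. H2-M5 was 1.28 and 2.71 CPM in CAF-vec and 1.06, 0.934 and 1.01 CPM in CAF-200 (-0.67, limma adjusted p = 0.103). It was past both thresholds without CAF-vec 1 (-1.10, limma adjusted p = 0.00247) and at -0.25 without CAF-vec 2.

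Of 15 genes of class II chains and loading, 14 were in the table, 7 were tested and 1 was called (median -0.32). That gene was Ctsh (ENSMUSG00000032359), a lysosomal aminopeptidase, at 16.0 and 15.7 CPM in CAF-vec and 42.9, 44.0 and 34.5 CPM in CAF-200, which rose by 1.32 on the log2 scale (standard error 0.129, limma adjusted p = 0.00331). Its call was lost without any 1 of the CAF-200 samples (limma adjusted p from 0.0227 to 0.0276), when at most 1 gene of all tested was called. Ctsh encodes a general lysosomal enzyme rather than a class II molecule. Ctsl (log2 change 0.04, limma adjusted p = 0.882), H2-DMa (-0.61, limma adjusted p = 0.102) and Lgmn (-0.52, limma adjusted p = 0.0628) were not called. Their log2 changes were 0.33, -0.47 and -0.26 without CAF-vec 1, and -0.25, -0.76 and -0.77 without CAF-vec 2. Ctss, the cathepsin that trims the invariant chain in antigen-presenting cells, was at 0 in all samples.

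Of 29 regulators of both classes, all were in the table, 24 were tested and 0 were called (median -0.13), while at an adjusted p under 0.01 alone 2 were higher and 2 lower, beside 4.45% and 5.57% of all genes. Jak2, a kinase of the interferon gamma receptor, was 25.8 and 28.7 CPM in CAF-vec and 41.3, 42.2 and 39.8 CPM in CAF-200 (log2 change 0.59, limma adjusted p = 0.00883). Ezh2, the methyltransferase of Polycomb complex PRC2, was 85.1 and 72.6 CPM against 157.8, 131.2 and 149.7 CPM (0.89, limma adjusted p = 0.0072). Its log2 change was 1.00 without CAF-vec 1 and 0.77 without CAF-vec 2. Stat2 and Tyk2, which carry the signal of type I interferon, were lower, with Stat2 at 31.5 and 29.7 CPM against 20.3, 19.8 and 18.5 CPM (-0.64, limma adjusted p = 0.00765) and Tyk2 at 15.4 and 15.6 CPM against 9.94, 9.20 and 9.17 CPM (-0.69, limma adjusted p = 0.00679). For each of these 4 genes the groups did not overlap, as for 61.6% of all genes. The limma adjusted p was between 0.0323 and 0.0576 without any 1 CAF-200 sample, when at most 1 gene of all tested was called. With no filter all 4 missed the threshold (limma adjusted p from 0.0115 to 0.0125), as they did with the replicate number as a block (limma adjusted p = 0.0271 for Ezh2, 0.0524 for Tyk2, 0.0553 for Jak2 and 0.0583 for Stat2), and Jak2 also missed it with no variance trend (limma adjusted p = 0.0114). Nlrc5, the class I transactivator, was 0.273 and 0.379 CPM in CAF-vec and 0.311, 0.511 and 0.254 CPM in CAF-200 and was not tested, and Ifnb1 and Ifng were at 0 in all samples.

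Of 10 costimulatory and checkpoint ligands, 5 were tested and 0 were called (median 0.30). Cd80 was 0.631 and 0.809 CPM in CAF-vec and 1.85, 1.73 and 2.00 CPM in CAF-200 (log2 change 0.95, limma adjusted p = 0.00866), and Tnfsf9, the ligand of 4-1BB, was 0.584 and 1.34 CPM against 2.99, 2.96 and 3.64 CPM (1.38, limma adjusted p = 0.0132). Cd276, which encodes B7-H3, was 42.9 and 33.0 CPM against 20.2, 19.98 and 20.3 CPM (-0.88, limma adjusted p = 0.00771). Each of these 3 lacked overlap between the groups, as did 61.6% of all genes, and missed 1 of the 2 thresholds. Without any 1 CAF-200 sample the adjusted p from limma was 0.0458 to 0.0529 for Cd80 and 0.0437 to 0.05 for Cd276, when at most 1 gene of all tested was called. The log2 changes of Cd80, Cd276 and Tnfsf9 were 1.06, -1.07 and 1.76 without CAF-vec 2, and 0.85, -0.70 and 1.00 without CAF-vec 1. Cd80 passed both thresholds with centring (limma adjusted p = 0.0078) and a pseudocount of 0.1 (limma adjusted p = 0.00898), and Tnfsf9 with quantile normalization (limma adjusted p = 0.00943). With the replicate block the limma adjusted p was 0.047 for Cd80 and 0.0296 for Cd276, and with no filter 0.0134 for Cd276.

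**Figure D5:**
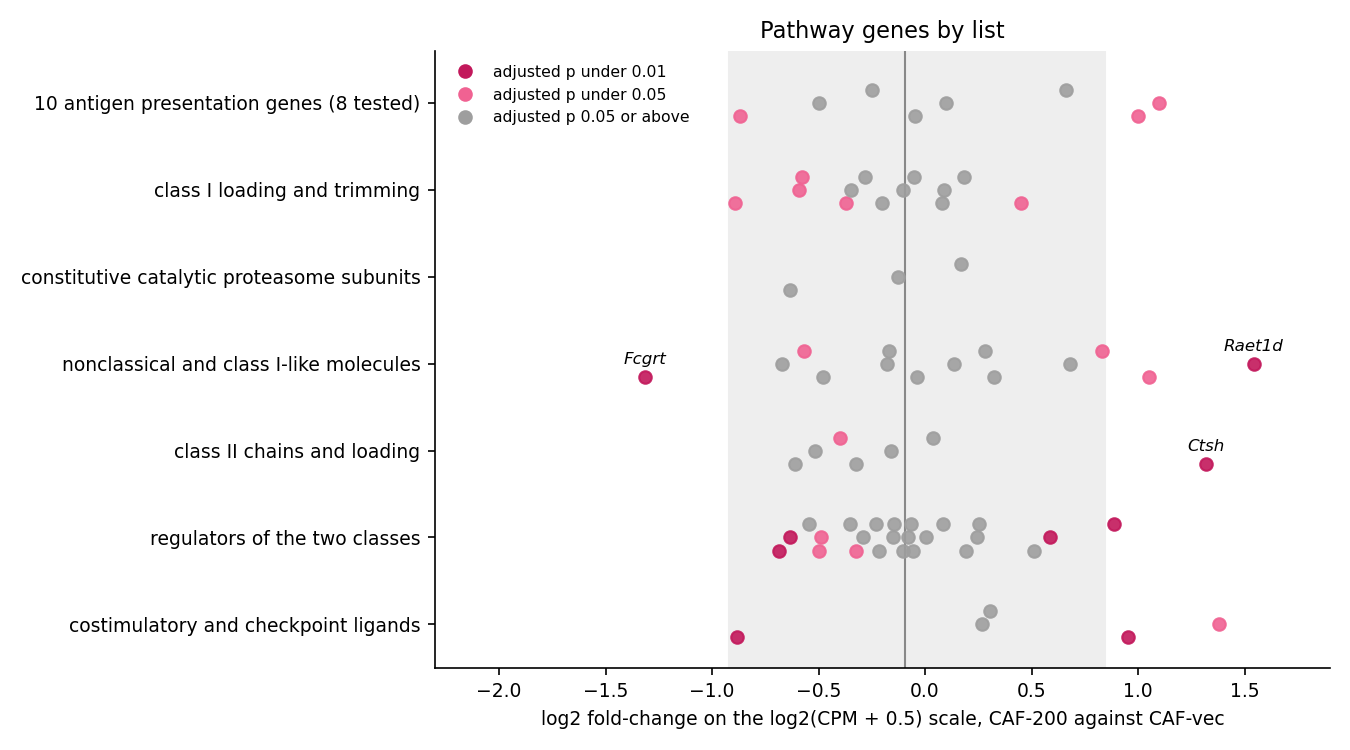
Log2 change on the log2(CPM + 0.5) scale of each gene tested, by list, coloured by adjusted p (limma), with the 5th to 95th percentile of all genes tested shaded (-0.92 to 0.85) and their median as a line. Raet1d, Ctsh and Fcgrt are the 3 genes past both thresholds. Of the 8 antigen presentation genes tested, Psmb9 lies outside the shading, as does Psmb8, which entered the test only through its CAF-200 values.

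The 5 genes whose mean-centred log2 values over the 5 samples were nearest to the average of the 8 tested antigen presentation genes were Cpped1, Rer1, Bace1, Parl and Nt5c3b, with root mean square differences of 0.00807 to 0.025. That average was nearly flat, between -0.11 and 0.12 in any sample, whereas single genes of the 8 ranged from -1.33 (B2m in CAF-vec 1) to 0.88 (Psmb9 in CAF-200 3).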

How the data were processed

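RNA of 2 CAF-vec and 3 CAF-200 samples was sequenced by the authors from stranded mRNA libraries (TruSeq, paired-end). Per the labels, FastQC, cutadapt, Trimmomatic, STAR, RSEM and edgeR were used with GRCm38/mm10, and versions, order and strand setting are not given in the sources used here. The authors deposited normalized values on the CPM scale, in a table named for TMM. Whole reads were not recovered from these CPM values (24.1% to 69.2% of values under 0.2 CPM lay within 0.05 of a whole step), so depth is unknown and the planned count test was not run. The study's methods describe triplicates, and the labels list 2 CAF-vec samples.

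On the log2(CPM + 0.5) scale, the groups were compared by limma (3.58.1, R 4.3.3) for genes that reached 0.5 CPM in 2 or more samples (variance trend, all 5 samples, Benjamini-Hochberg adjustment over the 12175 genes tested). The test was checked on simulated data in which both groups had the spread of the CAF-200 samples. That check does not cover the wider spread of the CAF-vec pair. Thresholds of adjusted p under 0.01 and log2 fold-change beyond 1 follow the study. Subunit ratios were compared with an exact two-sided permutation test. Positions and 3'-UTRs are from GENCODE M21, and promoters and miRNAs from RefSeq. The 10 genes and all lists were chosen with earlier results of these data known. Named genes are the 10, list genes past both thresholds, the 2 largest rises and falls of each list, ratio partners, Zeb1, Zeb2 and the 5 most alike in pattern; others were chosen after their values were seen. Alternatives were pseudocounts of 1 and 0.1, no filter or 1 CPM in every sample, quantile normalization, median centring, no variance trend, other thresholds, a replicate block and each sample left out. All 5 columns were used and 0 left out. Other software was Python 3.11.15, SciPy 1.17.1, numpy 2.4.6, matplotlib 3.10.9 and pandas 2.3.3.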

Additional observations from a re-analysis of the deposited data

How the results depend on the processing

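Counts of called genes depended on the samples more than on the scaling. Of the 10 genes, 0 were called in either direction in the main comparison. Leaving out any 1 CAF-200 sample also gave 0 in each direction, when at most 1 gene of all tested was called. Without CAF-vec 2 the log2 changes of B2m and Tapbp were 1.59 and -1.19. An adjusted p under 0.05 with the fold threshold gave 1 higher, and without it, chosen after seeing the data, 2 higher and 1 lower. Over the lists, 2 were called higher and 1 lower. Leaving out samples gave 0 to 7 higher and 0 to 3 lower, with 0 in both directions without any 1 CAF-200 sample, when at most 1 gene of all tested was called. No filter gave 1 and 0, a pseudocount of 0.1 gave 4 higher, and no variance trend gave 3 and 0. Centring on medians and quantile normalization each gave 3 and 1. An adjusted p under 0.05 gave 4 higher, an adjusted p under 0.01 with no fold threshold gave 5 and 4, and an adjusted p under 0.05 with none gave 9 and 13. A fit without a CAF-vec sample takes its spread from the CAF-200 samples alone and assumes that the lone control varies like them, so its counts of calls are left out here.

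The sign of H2-K1 turned with centring on medians (0.0487), quantile normalization (0.0434), and without CAF-200 3 (0.0191), and over the left-out samples it ran from -0.2956 to 0.1996. The values without 1 sample, lowest or highest without a CAF-vec sample, were -0.2666 to 1.5944 for B2m, -0.0422 to 0.2418 for Tap1, -0.2796 to 0.0297 for Psmb6, -0.5416 to 0.0828 for Zeb2, -0.2543 to 0.3330 for Ctsl and -0.4064 to 0.3064 for Psmb10. Ctsl was -0.0215 with quantile normalization. Psmb10 was 0.0466 with centring, 0.0583 with quantile normalization and 0.0661 without CAF-200 3. These genes were not called in the main comparison, and the causes were not tested. Centring moved all genes' calls from 289 higher and 286 lower to 365 and 228.

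With the replicate number as a block, the lists had 1 gene called higher and 0 lower, H2-K1 was 0.0191 and Psmb10 0.0661, Tapbp was -0.82 (adjusted p = 0.0545, limma) and Psmb9 0.88 (adjusted p = 0.0473, limma). CAF-200 3 is the only sample with its number, so the log2 changes with the block equal those without CAF-200 3. Samples with the same number deviated together over all genes with correlations of 0.249 and 0.134, over 2 pairs that share only a number, and CAF-vec 2 and CAF-200 3, which share none, with 0.119. The deviations of the 2 CAF-vec samples are mirror images of each other, so these correlations are not independent.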
